A study of Mus musculus with 9 samples.

Results

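The axon guidance ligands and receptors were followed as a set of 69 protein-coding genes, out of 21254 protein-coding genes in the table and 15267 that were tested. They were chosen by symbol, as the semaphorins of classes 3 to 7, the plexins and neuropilins, the Eph receptors and ephrins, the Robo and Slit genes, and the netrins with *Dcc*, *Neo1* and the Unc5 genes. All 69 passed the filter on low values, with 34 ligands and 35 receptors in 10 families. RNA immunoprecipitation-sequencing (RIP-seq) isolates a protein with an antibody and reads the RNA bound to it or to its partners. The 9 libraries came from the cytoplasm of cortices of P0 mice, and all of them carried the same genotype, heterozygous CELF2 p.R493H, a knock-in (KI) change of 1 residue of this RNA-binding protein. In the 3 CELF2-KI RIPs, called CELF2 RIPs here, the fraction was incubated with rabbit anti-CELF2 antibody, in the 3 IgG RIPs with normal rabbit IgG, and the 3 inputs were taken from the fraction before either was added. No RIP from wild-type cortex was analysed here, so the values describe RNA recovered with CELF2 in KI cytoplasm, not a change caused by the allele. The labels list neurons, radial glia, astrocytes, oligodendrocyte precursors, microglia and endothelial cells in the lysate, and in such bulk samples fewer cells of a type and less RNA per cell cannot be told apart.

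Growing axons are steered by cues that attract or repel the growth cone. Semaphorins signal through plexins, with neuropilins as co-receptors for most class 3 members, ephrins through Eph receptors, Slits through Robo receptors, and netrins through *Dcc*, neogenin and the Unc5 receptors. Class 3 semaphorins, Slits and netrins are secreted, the class 4 to 6 semaphorins and ephrin-Bs span the membrane, and ephrin-As and *Sema7a* are held by a lipid anchor. In the cortex these cues guide callosal, corticospinal and thalamocortical axons and migrating neurons.

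Coding genes totalled 13523208 to 16840312 counts per CELF2 RIP, 9347321 to 14965243 per IgG RIP and 55250740 to 78514685 per input. The IgG RIPs stood apart in 1 respect, since a single row without a gene in the annotation, NR_046233.2, held 10.8% to 34.9% of their counts, against at most 1.76% in the other libraries. *Celf2* mRNA was higher in CELF2 RIP than in both controls, by a log2 fold change of 1.46 against IgG RIP and 1.11 against input. Of the markers examined, those of excitatory neurons summed to 1671 to 2279 CPM, the counts scaled to library size, in CELF2 RIP, 893.7 to 1041 in IgG RIP and 971 to 1135 in input, with all 7 of 7 markers detected. Those of radial glia summed to 469.7 to 922.3, 645.8 to 757.4 and 1074 to 1283 CPM, and those of erythroid cells to 92.7 to 95.0, 365.8 to 583.8 and 877.1 to 1135 CPM. Inhibitory neuron markers summed to 447.2 to 608.9, 257.6 to 317.5 and 348.4 to 358.8 CPM, and markers of oligodendrocyte precursors to 547.4 to 654.9, 546.2 to 572.6 and 489.2 to 556.8 CPM. No marker was at 0 in every library. Single markers did not all follow these sums. Of the excitatory markers 3 of 7 (*Tbr1*, *Bcl11b* and *Slc17a7*) and of the inhibitory ones 1 of 6 (*Lhx6*) were called higher than both controls, beside 7.58% of all tested genes. Lower than both controls were 2 of 6 radial glial and 4 of 5 erythroid markers, beside 9.54% of all tested genes. Lower than input were 3 of 6 and 4 of 5, beside 15.5%. Against the sums of their lists, 1 of 6 inhibitory markers, *Dlx2* (-1.21), and 2 of 5 precursor markers, *Olig1* (-1.52) and *Sox10* (-1.54), were called lower than input. The part of cell type in the results that follow was not tested.

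CELF2 RIP held more RNA of 11 guidance genes than both controls and less of 2. The 11 were the transmembrane semaphorins *Sema4c*, *Sema4f*, *Sema5a* and *Sema6b*, the semaphorin receptors *Plxna3* and *Nrp2*, the ephrin *Efna5*, and *Neo1*, *Ntn1*, *Ntn3* and *Unc5c* of the netrin system. The 2 lower genes were the repellent *Slit1* and the endothelial receptor *Robo4*. A gene was called with edgeR's quasi-likelihood test over all 15267 genes with a Benjamini-Hochberg false discovery rate (FDR) below 0.01 and a fitted change of 2-fold or more. The 11 genes were 15.9% of the set, beside 7.58% of all tested genes called higher than both controls, and the 2 lower ones were 2.9% of the set beside 9.54%. Against IgG RIP alone, 13 members were higher (13.4% of all genes were) and 2 lower (13.6%). Against input alone, 16 were higher (14.6% of all genes) and 4 lower (15.5%). The share called higher in each comparison taken alone was 18.8% and 23.2% of the members. Between the controls, 1 member was higher in IgG RIP than in input (6.79% of all genes) and 2 were lower (5.0%).

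**Figure D1:**
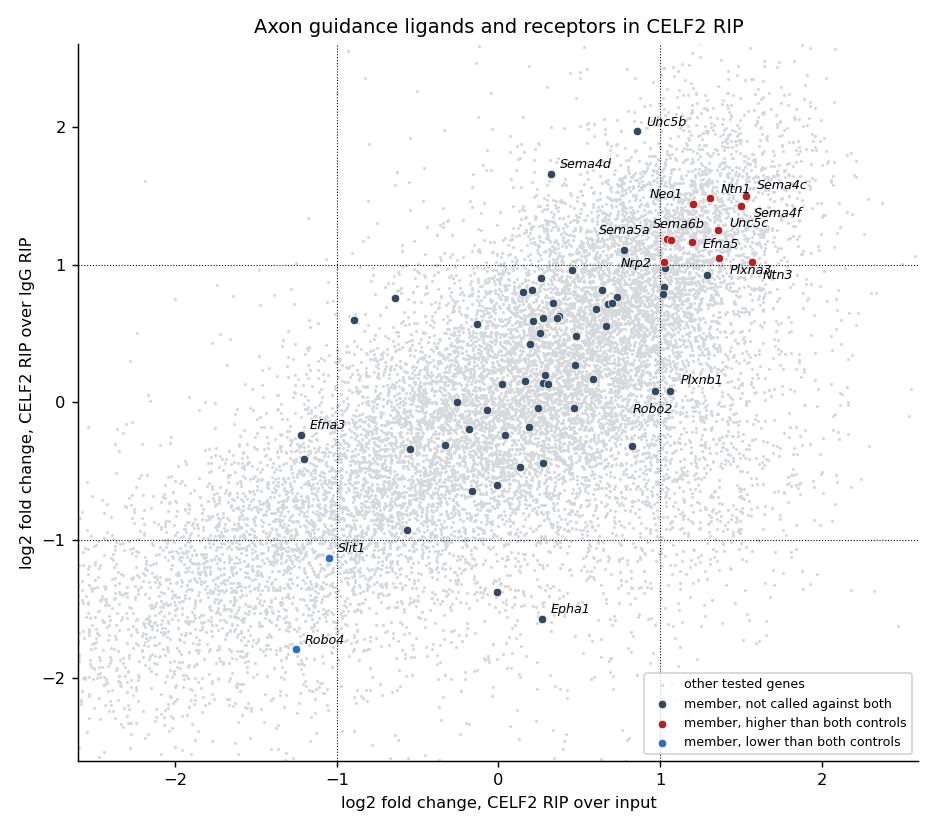
Each point is a gene, placed by the log2 fold change of CELF2 RIP against input on the horizontal axis and against IgG RIP on the vertical axis, with the 69 guidance genes in dark, red or blue and the other tested genes in grey. Dotted lines mark a 2-fold change, genes beyond 2.6 on either axis are not drawn, both axes share the CELF2 RIP libraries, and the 11 genes called higher than both controls lie in the upper right.

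The ranges of the single libraries, which ask for no fold, separated more genes. In 33 members, or 47.8%, all 3 CELF2 RIP libraries lay above all 6 control libraries, beside 25.2% of all tested genes. In 4 members, or 5.8%, they all lay below, beside 19.9% of all genes. The median log2 fold change of the members was 0.57 against IgG RIP, where that of all tested genes was -0.06, and 0.33 against input, where that of all genes was 0.19.

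Recovery also varied with mean CPM over the 9 libraries. Of the 69 members, 53 were among the 5089 tested genes with the highest mean CPM (39.4 or more), where the median of all genes against IgG RIP was higher than among less abundant ones (-0.14 and -0.42). Among these genes, 20.8% of the members and 16.4% of all genes were called higher than both controls, and 1.89% and 6.46% were called lower. All 3 CELF2 RIP libraries lay above all 6 control libraries in 60.4% of the members and 46.9% of all genes of this abundance. This gap was narrower than that between 47.8% and 25.2% without regard to abundance. A smaller share of the members than of all genes of this abundance lay below all controls. The members' median log2 fold change there was 0.68 against IgG RIP against 0.42 for all genes, and 0.47 against input against 0.57. In this group, which spans mean CPM from 39.4 to 6213, the members' median was thus above that of all genes against IgG RIP and below it against input. The CELF2 RIP libraries entered the mean CPM, so a gene's recovery itself helped to place it in the group. No member of lower abundance was called higher than both controls.

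**Figure D2:**
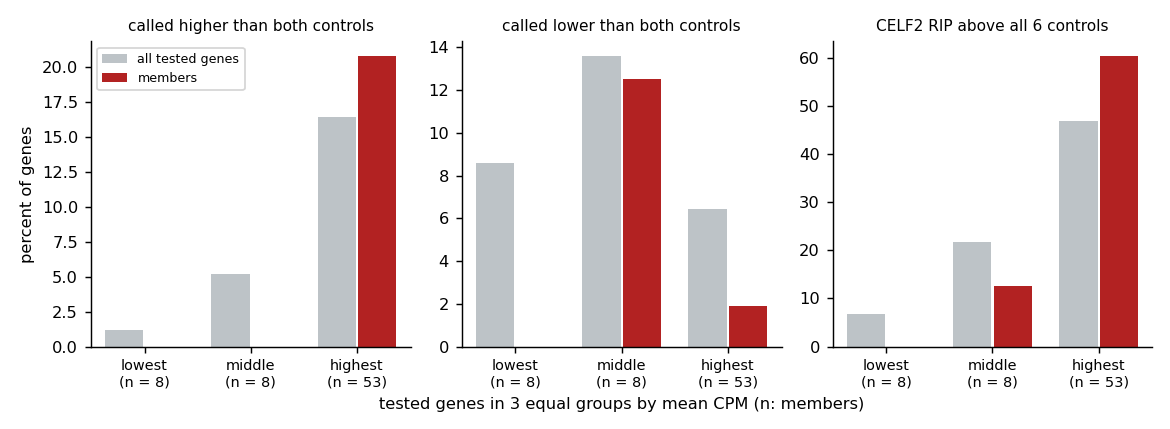
Bars give the percent of genes called higher than both controls (left), called lower (middle), or with all CELF2 RIP libraries above all 6 controls (right), in 3 equal groups of the tested genes by mean CPM over all libraries, CELF2 RIP included, with all tested genes in grey and members in red. In the highest group, which holds 53 of the 69 members, 20.8% of members and 16.4% of all genes were called higher than both controls, and the lower groups hold 8 members each.

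The counts depended on how the libraries were scaled. With total counts as the only scaling, 2 members were called higher than both controls in place of 11, and the share of higher genes among all calls against IgG RIP was 21.5% in place of 49.8%. That share was 28.7% with upper-quartile factors and 32.4% with TMM over coding and noncoding genes. Over input the same shares were 12.9%, 28.4% and 17.3%, in place of 48.5%, and 36.6% with DESeq2 size factors. Across all alternatives, the distance of the members' median from that of all genes lay between 0.53 and 0.63 against IgG RIP. Against input it lay between 0.12 and 0.27. A change of scaling moves all genes nearly alike, so this distance could not test the scaling. Of the 11 higher genes, *Sema4c* and *Sema4f* were called under all 4 other scalings, *Ntn1* under 2, *Efna5*, *Neo1* and *Unc5c* under 1, and the other 5 under 0. The 2 lower genes were called under all 4. All 4 moved the median of all genes downwards, from -0.06 to between -0.12 and -0.42 against IgG RIP. Against input it went from 0.19 to between 0.05 and -0.27. Such a shift favours lower calls and works against higher ones, so these scalings could not test the lower calls.

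**Figure D3:**
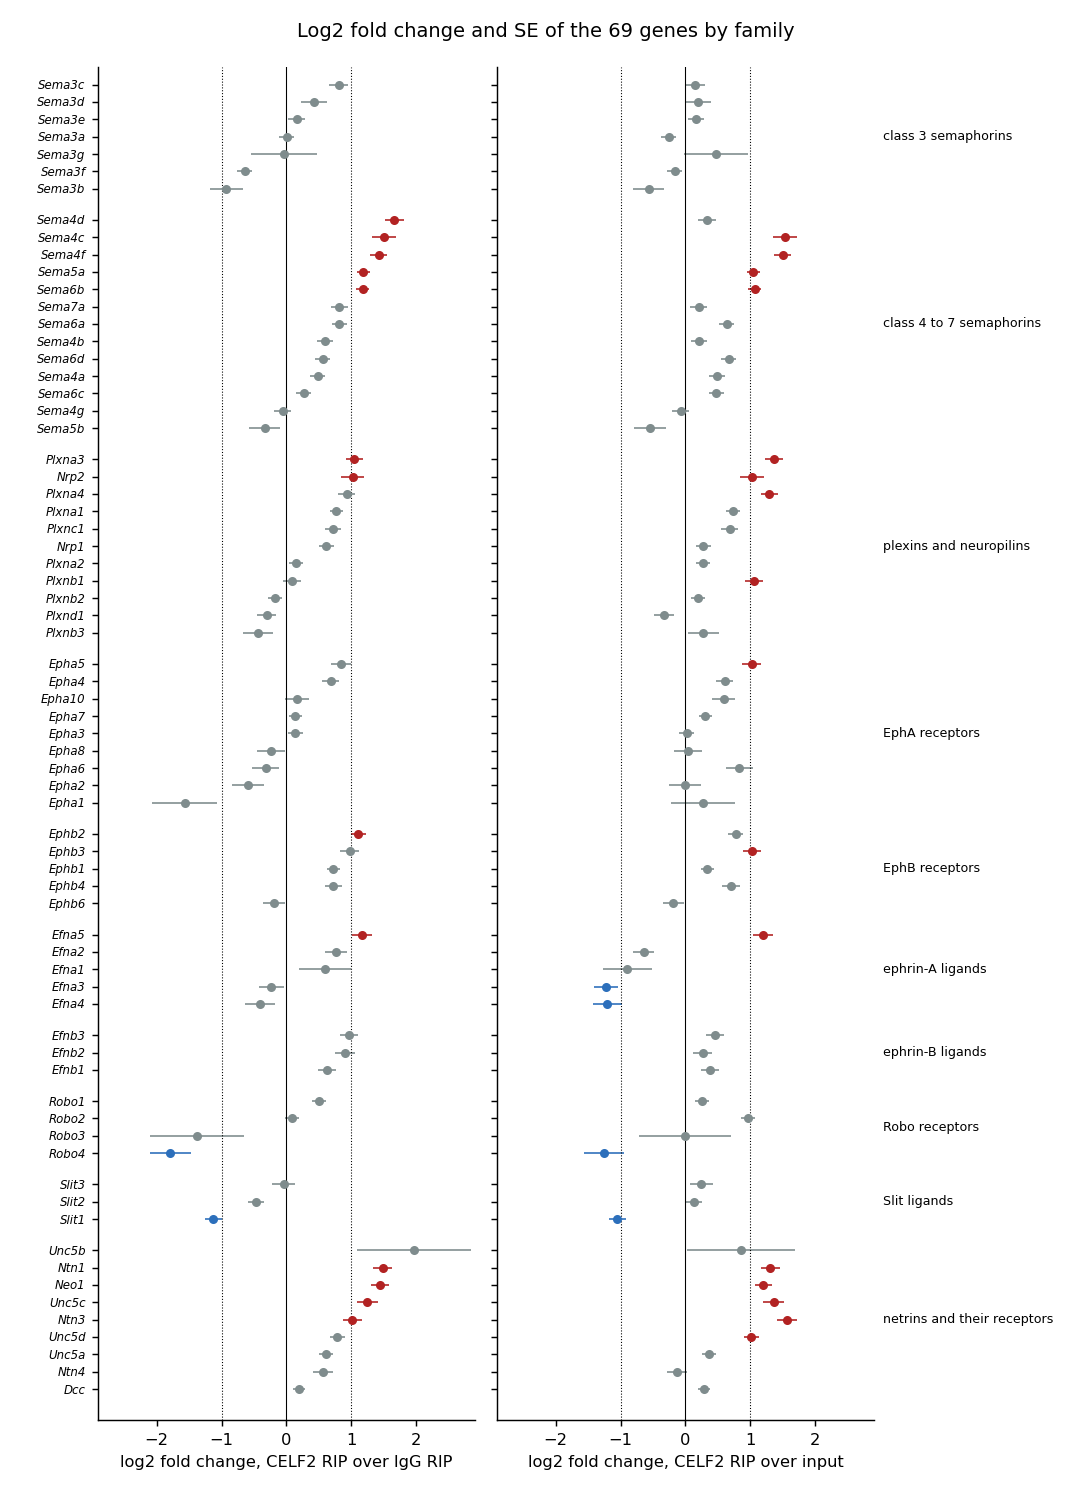
Log2 fold change of CELF2 RIP against IgG RIP (left) and against input (right) for each of the 69 genes, grouped by family, as a point with its SE from the edgeR fit of 9 libraries. Genes called higher are red and genes called lower are blue, dotted lines mark a 2-fold change, and red points in both panels are most frequent among the netrins with their receptors (4 of 9) and the class 4 to 7 semaphorins (4 of 13). Of all tested genes, 7.58% were called higher than both controls, and of those with the highest mean CPM 16.4% were.

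The netrin system was the family with the highest medians, 1.02 against IgG RIP and 1.02 against input. Of its 9 genes, 4 (44.4%) were called higher than both controls and 0 lower, beside 7.58% and 9.54% of all tested genes. In 8 (88.9%) the CELF2 RIP libraries lay above all controls, beside 25.2% of all tested genes. Among all genes with the highest mean CPM these shares were 16.4% called higher and 46.9% above all controls. *Ntn1* (GRCm38 chromosome 11, 68209364 to 68386826), the secreted netrin that attracts commissural axons, was at 216, 284 and 209 CPM in CELF2 RIP, 83.0, 93.7 and 77.7 CPM in IgG RIP, and 92.4, 107 and 87.1 CPM in input. Its lowest CELF2 RIP library was thus well above its highest control. The log2 fold change of *Ntn1* was 1.48 against IgG RIP (SE 0.15, edgeR FDR 2.6e-05) and 1.31 against input (SE 0.15, edgeR FDR 4.1e-05). *Neo1* (GRCm38 chromosome 9, 58874679 to 59036614) encodes neogenin, a receptor for netrins and for repulsive guidance molecules. It was at 1722, 2520 and 1993 CPM in CELF2 RIP, 744, 734 and 820 CPM in IgG RIP, and 924, 908 and 876 CPM in input. The groups did not overlap, and its log2 fold change was 1.44 against IgG RIP (SE 0.14, edgeR FDR 2.1e-05) and 1.20 against input (SE 0.14).

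*Unc5c* (GRCm38 chromosome 3, 141465564 to 141834924), a receptor through which netrin repels axons, was at 250, 361 and 259 CPM in CELF2 RIP, 133, 130 and 103 CPM in IgG RIP, and 121, 113 and 105 CPM in input. This gave a log2 fold change of 1.25 against IgG RIP (SE 0.16, edgeR FDR 0.00012) and 1.36 against input (SE 0.16). *Neo1*, *Ntn1* and *Unc5c* were called in all 9 fits that left out 1 library, but with total counts as the only scaling *Neo1* was at 0.73 and *Ntn1* at 0.84 against input, and *Unc5c* at 0.87 against IgG RIP, none of them called. *Ntn3* (GRCm38 chromosome 17, 24203831 to 24209387), another netrin, was at 101, 142 and 132 CPM in CELF2 RIP, 69.1, 64.0 and 52.2 CPM in IgG RIP, and 41.0, 42.0 and 43.1 CPM in input. It passed by little, with 1.02 against IgG RIP (SE 0.15, edgeR FDR 0.00028) and 1.57 against input. The gene overlaps *Tbc1d24* in the annotation, so reads of the overlap could have been split between them. Its call against IgG RIP was lost without CELF2 RIP replicate 2 (0.91) or 3 (0.98), IgG RIP replicate 3 (0.90) or input replicate 2 (0.91).

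*Dcc*, the receptor through which netrin attracts axons, was not called in either comparison. It was at 344, 333 and 352 CPM in CELF2 RIP, 324, 299 and 275 CPM in IgG RIP, and 283, 285 and 275 CPM in input. The CELF2 RIP libraries were the highest 3 of 9, but the log2 fold change was 0.20 against IgG RIP (SE 0.09, edgeR FDR 0.10) and 0.29 against input (SE 0.09), and the former was -0.17 with total counts as the only scaling. *Unc5d*, expressed in upper-layer precursors, was at 188, 184 and 173 CPM in CELF2 RIP, 91.7, 107 and 118 CPM in IgG RIP, and 89.1, 90.1 and 90.0 CPM in input. It was called higher than input (1.02, edgeR FDR 3.5e-05) and, at 0.78, lay under the 2-fold threshold against IgG RIP. *Unc5b*, a receptor of endothelial and neural cells, was at 23.4, 43.7 and 33.6 CPM in CELF2 RIP. Its IgG RIP values of 19.0, 6.44 and 0.00 CPM spread widely, input was at 15.3, 18.0 and 22.4 CPM, and the log2 fold change of 1.97 against IgG RIP (SE 0.88, edgeR FDR 0.082) did not pass. That value was between 1.37 and 3.48 when 1 library was left out. *Unc5a* and *Ntn4* were not called in either comparison.

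Of the 13 semaphorins of classes 4 to 7, 5 were higher than in IgG RIP, 4 higher than input, and 4 higher than both. The last were 30.8% of the family, beside 7.58% of all tested genes and 16.4% of those with the highest mean CPM. Against IgG RIP alone 13.4% and against input alone 14.6% of all tested genes were higher. *Sema4c* (GRCm38 chromosome 1, 36548639 to 36560699), a transmembrane ligand of plexin-B2, was at 388, 712 and 514 CPM in CELF2 RIP, 195, 188 and 189 CPM in IgG RIP, and 176, 190 and 192 CPM in input. The CELF2 RIP libraries differed among themselves, and each was still far above the controls, which were alike. The fitted log2 fold change was 1.50 against IgG RIP (SE 0.19, edgeR FDR 8.7e-05) and 1.53 against input (SE 0.18). *Sema4f* (GRCm38 chromosome 6, 82911884 to 82939769), a transmembrane semaphorin of neurons, was at 231, 329 and 260 CPM in CELF2 RIP, 103, 101 and 101 CPM in IgG RIP, and 97.4, 99.8 and 92.3 CPM in input. EdgeR put its log2 fold change at 1.42 against IgG RIP (SE 0.13, edgeR FDR 1.8e-05) and 1.50 against input (SE 0.13). *Sema4c* and *Sema4f* were the 2 genes called higher in 20 of 21 alternatives, the exception being the test against the 2-fold threshold itself.

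*Sema5a* (GRCm38 chromosome 15, 32244813 to 32696341), a semaphorin with thrombospondin repeats, was at 237, 286 and 290 CPM in CELF2 RIP, 121, 121 and 116 CPM in IgG RIP, and 133, 131 and 130 CPM in input. This gave a log2 fold change of 1.18 against IgG RIP (SE 0.10, edgeR FDR 1.4e-05) and 1.05 against input (SE 0.10), and the call against input was lost without CELF2 RIP replicate 3 (1.0, just under the threshold) or input replicate 2 (0.93). *Sema6b* (GRCm38 chromosome 17, 56123085 to 56140343), which binds class A plexins, was at 577, 552 and 507 CPM in CELF2 RIP, 245, 260 and 219 CPM in IgG RIP, and 266, 264 and 250 CPM in input. The fitted log2 fold change was 1.18 against IgG RIP (SE 0.10, edgeR FDR 1.4e-05) and 1.07 against input (SE 0.10), which fell to 0.97 without input replicate 2. Both genes thus lay just inside the threshold against input. The other members ranged in log2 fold change against IgG RIP from -0.34 for *Sema5b*, at 73.2, 37.3 and 65.4 CPM in CELF2 RIP and 83.5, 86.7 and 86.8 CPM in input, to 1.66 for *Sema4d*.

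The 7 class 3 semaphorins, secreted guidance cues, had 0 genes called by edgeR in any of the comparisons, since none reached 2-fold. Of all tested genes, 7.58% were called higher and 9.54% lower than both controls. Against IgG RIP 3 of the 7 passed the FDR, *Sema3c* upwards and *Sema3b* and *Sema3f* downwards, and 3 had an unadjusted p under 0.05. Of all 15267 tested genes, 3493 passed the FDR upwards and 2933 downwards in this comparison, so such a share was common. Against input 1 had an unadjusted p under 0.05. Their median log2 fold change was 0.00 against IgG RIP and 0.16 against input. *Sema3a* was at 83.8, 71.8 and 83.0 CPM in CELF2 RIP, 70.1, 82.3 and 86.2 CPM in IgG RIP, and 92.4, 96.5 and 95.9 CPM in input. Its CELF2 RIP libraries overlapped those of IgG RIP and lay below input. *Sema3c* was at 171, 152 and 172 CPM in CELF2 RIP, 85.6, 81.2 and 116 CPM in IgG RIP, and 152, 153 and 139 CPM in input. It was higher than IgG RIP by a log2 fold change of 0.80 (edgeR FDR 0.00084), under the 2-fold threshold, and close to input (0.16, SE 0.14). *Sema3b*, at 4.16, 2.93 and 3.57 CPM in CELF2 RIP against 5.32, 7.73 and 7.24 CPM in IgG RIP and 4.55, 6.21 and 5.03 CPM in input, and *Sema3f* were the 2 members of the class with all CELF2 RIP libraries below all controls. They were 28.6% of the class, beside 19.9% of all tested genes. *Sema3b* overlaps *Lsmem2* in the annotation, and its log2 fold change of -0.93 against IgG RIP was 0.14 with curated transcripts alone. Whether secreted and transmembrane semaphorins differ as classes was not tested.

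Among the 11 plexins and neuropilins, 2 (18.2%) were called higher than both controls and 0 lower in any comparison. Called higher than both were 7.58% of all tested genes and 16.4% of those with the highest mean CPM, a group that holds every gene of this family except *Plxnb3*. Against input 4 were higher, where 14.6% of all tested genes were. *Plxna3* (GRCm38 chromosome X, 74328290 to 74344689), a plexin-A receptor that pairs with neuropilins, was at 841, 1057 and 935 CPM in CELF2 RIP, 508, 478 and 384 CPM in IgG RIP, and 371, 339 and 389 CPM in input. EdgeR put its log2 fold change at 1.05 against IgG RIP (SE 0.13, edgeR FDR 0.0001) and 1.37 against input (SE 0.13). The call against IgG RIP was lost without CELF2 RIP replicate 2 (0.96), IgG RIP replicate 3 (0.93) or input replicate 2 (0.94). It was also lost under each of the 4 other scalings (0.67 to 0.98) and with curated transcripts alone (0.83). *Nrp2* (GRCm38 chromosome 1, 62703317 to 62818692), the co-receptor for *Sema3f*, was at 500, 894 and 675 CPM in CELF2 RIP, 333, 359 and 329 CPM in IgG RIP, and 315, 338 and 364 CPM in input. Its CELF2 RIP libraries spread widely and all lay above the controls, with a log2 fold change of 1.02 against IgG RIP (SE 0.18, edgeR FDR 0.00082) and 1.02 against input (SE 0.18). This was among the least firm of the calls. With the replicate number as a block, *Nrp2* was at 0.99 against IgG RIP and 1.0 against input and was not called. It was also lost without CELF2 RIP replicate 2 (0.79 against both), IgG RIP replicate 1 (1.0, just under the threshold) or 3 (0.99 against IgG RIP), or input replicate 1 (0.97 against input) or 2 (0.91 against both).

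*Nrp1*, the co-receptor for *Sema3a*, was at 192, 233 and 193 CPM in CELF2 RIP, 144, 121 and 137 CPM in IgG RIP, and 175, 167 and 168 CPM in input. All 3 CELF2 RIPs were above the controls, but the log2 fold change was 0.62 against IgG RIP (SE 0.11, edgeR FDR 0.0011) and 0.27 against input (SE 0.11), short of 2-fold. The values of *Nrp1* and *Nrp2* were not compared with each other by a test. *Plxna4*, the plexin that acts with *Nrp1* in the response to *Sema3a*, was at 1983, 2817 and 2487 CPM in CELF2 RIP, 1381, 1250 and 1204 CPM in IgG RIP, and 1008, 966 and 999 CPM in input. It was called higher than input (1.29, SE 0.13, edgeR FDR 2.5e-05) and lay just outside the threshold against IgG RIP (0.93, SE 0.13). *Plxna1*, another plexin-A receptor, was at 2305, 1970 and 2271 CPM in CELF2 RIP, 1319, 1341 and 1186 CPM in IgG RIP, and 1353, 1248 and 1327 CPM in input, for log2 fold changes of 0.77 against IgG RIP and 0.74 against input, with edgeR FDRs of 0.00015 and 0.00017. The lowest log2 fold change against IgG RIP was that of *Plxnb3* (-0.44, SE 0.24), whose libraries were all between 3.90 and 10.3 CPM.

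**Figure D4:**
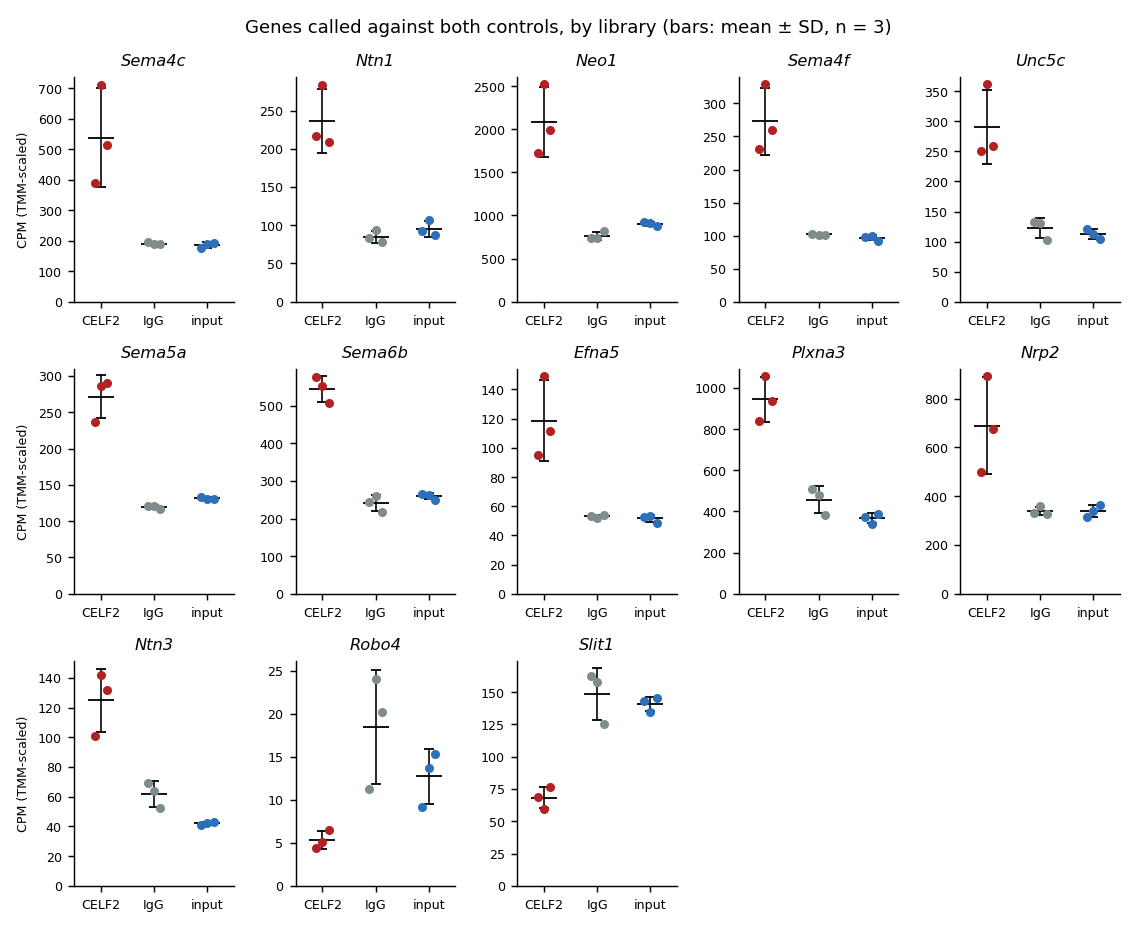
CPM on the TMM-scaled library size of the 13 guidance genes called against both controls, 1 panel a gene, with 3 CELF2 RIP, 3 IgG RIP and 3 input libraries as points and the mean ± SD as bars. In the first 11 panels every CELF2 RIP library lies above all 6 controls, and in *Robo4* and *Slit1* every one lies below. These genes were chosen by the call, so the separation follows largely from it.

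In the Eph and ephrin system, *Efna5* (GRCm38 chromosome 17, 62602957 to 62881317) was the 1 gene of 22 called higher than both controls, where 7.58% of all tested genes were. This lipid-anchored ephrin, a repellent in topographic mapping, was at 94.8, 149 and 112 CPM in CELF2 RIP, 53.3, 51.6 and 54.1 CPM in IgG RIP, and 52.9, 53.5 and 48.7 CPM in input. This gave a log2 fold change of 1.16 against IgG RIP (SE 0.16, edgeR FDR 0.00015) and 1.20 against input (SE 0.16), and without CELF2 RIP replicate 2, its highest library, 0.96 and 1.0, which was not called. The other 4 ephrin-As did not follow it. *Efna3* and *Efna4* were lower than input, by log2 fold changes of -1.22 and -1.20 (edgeR FDR 0.00032 and 0.0011), and not detectably different from IgG RIP (-0.23 and -0.41). *Efna4* was at 3.92, 3.70 and 4.37 CPM in CELF2 RIP, 4.44, 4.36 and 7.10 CPM in IgG RIP, and 8.93, 9.03 and 9.62 CPM in input. *Efna2* was lower in IgG RIP than in input (-1.40, edgeR FDR 0.00033), with CELF2 RIP between them. *Efna1*, at most 6.57 CPM in any library, had the same order without a call.

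The 3 ephrin-Bs, transmembrane ligands that also signal back into the cell that carries them, were higher than IgG RIP by log2 fold changes between 0.62 and 0.96 and none reached 2-fold. *Efnb2* was at 127, 188 and 144 CPM in CELF2 RIP, 72.3, 89.9 and 84.0 CPM in IgG RIP, and 120, 130 and 132 CPM in input. Its lowest CELF2 RIP library overlapped input, and the log2 fold change was 0.90 against IgG RIP (SE 0.15, edgeR FDR 0.00059) but 0.27 against input (SE 0.15, edgeR FDR 0.15). *Efnb3*, an ephrin of the corticospinal midline barrier, was at 664, 448 and 534 CPM in CELF2 RIP, 264, 294 and 287 CPM in IgG RIP, and 392, 423 and 387 CPM in input, for 0.96 against IgG RIP and 0.45 against input. *Efnb1* was at 151, 116 and 153 CPM in CELF2 RIP, 79.0, 98.2 and 96.2 CPM in IgG RIP, and 101, 109 and 115 CPM in input.

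The EphB receptors had higher medians (0.72 against IgG RIP and 0.70 against input) than the EphA receptors (0.13 and 0.31). In 4 of 5 EphBs (80.0%) and 3 of 9 EphAs (33.3%) the CELF2 RIP libraries lay above all controls. The same held for 25.2% of all tested genes and 46.9% of those with the highest mean CPM. The difference between the families was not tested. *Ephb2*, a receptor of commissural axons and synapses, was at 587, 773 and 714 CPM in CELF2 RIP, 317, 337 and 308 CPM in IgG RIP, and 391, 399 and 420 CPM in input. It was called against IgG RIP (1.11, SE 0.12, edgeR FDR 3.2e-05) and lay under the threshold against input (0.78, SE 0.11). *Ephb3* had the reverse, with 0.97 against IgG RIP and 1.03 against input (edgeR FDR 0.00013). *Ephb6*, a receptor without kinase activity, was at 218, 151 and 163 CPM in CELF2 RIP, 221, 225 and 164 CPM in IgG RIP, and 212, 208 and 185 CPM in input, which overlapped.

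*Epha4*, the receptor for ephrin-B3 at the spinal midline, was at 626, 868 and 692 CPM in CELF2 RIP, 448, 414 and 503 CPM in IgG RIP, and 484, 496 and 458 CPM in input. The groups did not overlap, with log2 fold changes of 0.68 (SE 0.13, edgeR FDR 0.0016) and 0.60 (SE 0.13, edgeR FDR 0.0028), both short of 2-fold. With curated transcripts alone the first was -0.02 and the second 0.15. *Epha5*, a receptor for ephrin-As, was at 239, 318 and 267 CPM in CELF2 RIP, 160, 125 and 175 CPM in IgG RIP, and 138, 142 and 125 CPM in input, and was called against input (1.02) but not against IgG RIP (0.84). *Epha1* was near the filter, at most 0.89 CPM in CELF2 RIP, 2.78 in IgG RIP and 0.67 in input, and its log2 fold change of -1.57 against IgG RIP (SE 0.50, edgeR FDR 0.022) did not pass. It overlaps *Zyx* in the annotation.

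The Slit and Robo genes were the families with medians below 0 against IgG RIP (-0.47 and -0.65). Their medians against input were above 0 (0.13 and 0.12). Among the Robo genes, *Robo1* and *Robo2* were above 0 against IgG RIP (0.50 and 0.08) and *Robo3* and *Robo4* below (-1.38 and -1.79). Called lower than both controls were 1 of 3 Slit genes and 1 of 4 Robo genes, beside 9.54% of all tested genes. *Slit1* (GRCm38 chromosome 19, 41597824 to 41747275), a secreted repellent of neurons, was at 68.4, 59.7 and 76.3 CPM in CELF2 RIP, 163, 158 and 126 CPM in IgG RIP, and 143, 135 and 145 CPM in input. Every CELF2 RIP library was far below every control, which were alike. The fitted log2 fold change was -1.13 against IgG RIP (SE 0.13, edgeR FDR 6.7e-05) and -1.05 against input (SE 0.13, edgeR FDR 8.5e-05), and against input it was -0.96, not called, without CELF2 RIP replicate 2. *Slit2* was under the threshold (-0.47 against IgG RIP, 0.13 against input). *Slit3*, at 54.1, 60.3 and 62.9 CPM in CELF2 RIP, 74.5, 64.0 and 44.1 CPM in IgG RIP and 50.8, 46.7 and 52.0 CPM in input, lay within the range of IgG RIP and above input without a call.

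*Robo4* (GRCm38 chromosome 9, 37401902 to 37414023) is the family member of blood vessels. It was at 4.40, 5.08 and 6.51 CPM in CELF2 RIP, 11.2, 24.1 and 20.2 CPM in IgG RIP, and 9.12, 13.6 and 15.3 CPM in input, with log2 fold changes of -1.79 (SE 0.31, edgeR FDR 0.00078) and -1.26 (SE 0.31, edgeR FDR 0.0052). The call against input was lost without CELF2 RIP replicate 1 (-1.13) or 2 (-1.22) or input replicate 2 (-1.31) or 3 (-1.10). The 5 endothelial markers summed to 157.8 to 229.1 CPM in CELF2 RIP, 147.3 to 324.5 in IgG RIP and 197.7 to 309.3 in input. Of these, *Cdh5* was called lower than both controls and *Cldn5* lower than input, and *Pecam1*, *Flt1* and *Kdr* were not called. The part of endothelial RNA in the value of *Robo4* was not tested.

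The other Robo receptors were not called in any comparison. *Robo1*, which mediates repulsion by Slits, was at 654, 863 and 790 CPM in CELF2 RIP, 538, 559 and 530 CPM in IgG RIP, and 619, 651 and 660 CPM in input. EdgeR put its log2 fold change at 0.50 against IgG RIP (SE 0.11, edgeR FDR 0.0034) and 0.26 against input (SE 0.11), not called. *Robo2* was at 223, 250 and 253 CPM in CELF2 RIP, 227, 242 and 215 CPM in IgG RIP, and 128, 129 and 113 CPM in input. Both immunoprecipitates were thus near each other and well above input. *Robo3*, which lets commissural axons cross the midline, ranged from 0.65 to 10.2 CPM among the IgG RIPs, with a log2 fold change of -1.38 against IgG RIP (SE 0.72, edgeR FDR 0.13) and -0.01 against input.

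For several genes the answer depended on the control. The 8 such genes plotted were picked after their values were seen, as were the values given for *Efna2*, *Efna3*, *Plxnb1* and *Epha6*. *Sema4d*, a transmembrane semaphorin that binds plexin-B1, was at 64.6, 55.1 and 54.0 CPM in CELF2 RIP, 20.3, 15.9 and 18.7 CPM in IgG RIP, and 46.8, 41.5 and 50.4 CPM in input. It was higher than IgG RIP by a log2 fold change of 1.66 (SE 0.15, edgeR FDR 1.4e-05), but the IgG RIPs were themselves lower than input by -1.33 (edgeR FDR 0.00021), and against input it was not called (0.33). *Plxnb1*, its receptor, did the opposite. It was at 881, 765 and 852 CPM in CELF2 RIP, 897, 838 and 626 CPM in IgG RIP, and 414, 392 and 390 CPM in input, so that it was higher than input (1.06, edgeR FDR 9.3e-05) and not detectably different from IgG RIP (0.08, SE 0.13). *Epha6* was called higher in IgG RIP than in input (1.15, edgeR FDR 0.0021), with 255, 246 and 142 CPM in IgG RIP, 146, 198 and 171 CPM in CELF2 RIP, and 99.3, 99.9 and 91.0 CPM in input. *Robo2* had log2 fold changes of 0.08 against IgG RIP, 0.97 against input, and 0.88 for IgG RIP against input.

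**Figure D5:**
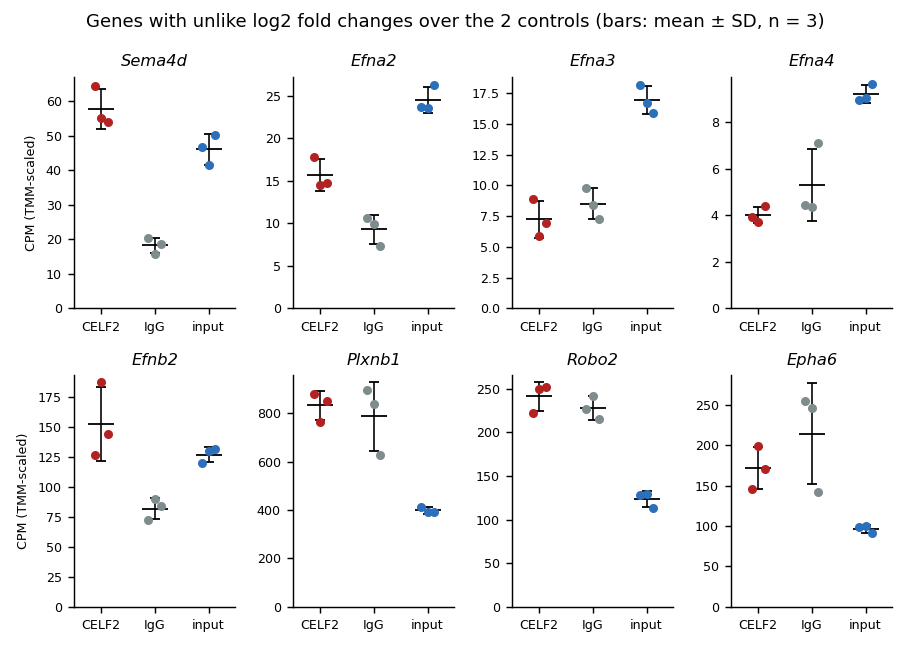
CPM on the TMM-scaled library size of 8 guidance genes with unlike log2 fold changes over the 2 controls, with 3 libraries of each condition as points and the mean ± SD as bars. In *Sema4d* and *Efnb2* the IgG RIPs alone lie below input, in *Efna2*, *Efna3* and *Efna4* both immunoprecipitates do, and in *Plxnb1*, *Robo2* and *Epha6* both lie above input.

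The calls nearest the threshold were *Ntn3* (1.02) and *Nrp2* (1.02 in both comparisons) on the inside and *Ephb3* (0.97) and *Plxna4* (0.93) on the outside, all against IgG RIP. By role, 7 of 34 ligands (20.6%) and 4 of 35 receptors (11.4%) were called higher than both controls. This share was 7.58% of all tested genes and 16.4% of those with the highest mean CPM. Called lower was 1 of each role (2.94% and 2.86%), beside 9.54% of all tested genes. The higher ligands were 4 of 15 transmembrane, 2 of 13 secreted and 1 of 6 lipid-anchored ones. No test of one role against another was run.

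Other genes of the pathway were taken from lists written by symbol. Of 40 further cues and co-receptors, 3 (7.5%, beside 7.58% of all tested genes) were higher than both controls and 0 lower, and their medians were 0.57 against IgG RIP and 0.35 against input. The 3 were *Rgmb*, a repulsive guidance molecule that binds neogenin (log2 fold changes 2.12 and 1.55), *Ntng2*, a lipid-anchored netrin-G (1.17 and 1.04), and *Lrig2*, a membrane protein (1.23 and 1.20). *Rgmb* was at 196, 336 and 272 CPM in CELF2 RIP, 64.6, 55.8 and 64.8 CPM in IgG RIP, and 90.0, 85.4 and 99.5 CPM in input. Of 63 intracellular effectors, 9 (14.3%) were higher than both controls and 4 (6.35%, beside 9.54% of all genes) lower, with medians of 0.05 against IgG RIP and 0.43 against input. The higher ones included *Dpysl2*, *Dpysl3* and *Dpysl5*, collapsin response mediator proteins that act below semaphorin receptors, with log2 fold changes of 1.69, 1.29 and 1.24 against IgG RIP and 1.62, 1.15 and 1.39 against input. Also higher were the kinase genes *Src* and *Pak3*, the Cdk5 activator *Cdk5r1*, the Slit-Robo GTPase-activating protein *Srgap3*, the actin regulator *Enah* and *Trim67*, a ligase that binds *Dcc*. Lower were *Cdk5*, *Vasp*, *Fes* and *Gipc1*, by log2 fold changes of -1.75, -1.42, -2.33 and -1.56 against IgG RIP. The effectors thus moved in both directions, and *Cdk5* mRNA was lower where that of its activator was higher.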

How the data were processed

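RIP-seq libraries were made from the cytoplasm of P0 heterozygous *Celf2* KI cortex, 3 biological replicates a condition. Per the labels, rRNA was depleted, libraries were directional, reads were checked with FastQC 0.11.9, trimmed with fastp 0.23.4, cleared of rRNA with Ribodetector 0.3.1 and quantified with kallisto 0.51.1. The authors deposited estimated counts per RefSeq transcript, not normalized for depth or length. The strand setting of the quantification is not given in the sources used here. All 9 columns were used, and 0 were left out. Of 107384 transcript rows, 20662 had no gene in the RefSeq table of GRCm38.p6 (the submitters' notes name mm10) and were left out. They held 11.6% to 12.6% of counts in CELF2 RIP, 21.1% to 43.5% in IgG RIP and 9.24% to 9.75% in input.

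Rows of a gene were added up and the sums rounded (315 rows for the 69 members). The 15267 coding genes that reached 0.5 CPM in 3 or more libraries were fitted with edgeR 4.0.16 (quasi-likelihood test, R 4.3.3, limma 3.58.1), a mean per condition and TMM scaling over the protein-coding genes (factors 0.771 to 0.878 in CELF2 RIP, 1.05 to 1.08 in IgG RIP, 1.12 to 1.16 in input). The common biological coefficient of variation was 0.221. Values per library are CPM on the scaled library size, not divided by transcript length. Where genes were ranked or grouped by mean CPM, longer transcripts therefore count for more. Standard errors reflect variation among these libraries alone, and without molecular identifiers duplicates were counted as reads. Replicates differed by more than sampling noise (chi-square per gene 11.9 to 44.1). Alternatives covered scaling, filter, test, threshold, block, libraries in the fit, transcript classes and leaving out each library, with DESeq2 1.42.0 as the other test. Tables and figures used pandas 2.3.3 and matplotlib 3.10.9 (Python 3.11.15). The steps were tested on simulated data.

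Same-numbered CELF2 RIP and input libraries deviated together across 11534 genes (r = 0.185, 0.122 and 0.213), whereas CELF2 RIP with IgG RIP did not (-0.070, 0.038 and -0.011), nor IgG RIP with input (0.087, 0.064 and 0.008), so the number was taken to pair CELF2 RIP with input. The pairing comes from the data, as the labels give only the number.

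The lists, markers and tests, like the members, were chosen with earlier results of these data known. Genes given by library were those called alike against both controls, in each family the member with the highest input level and those with the largest and smallest change over IgG RIP, and 13 genes listed by hand, *Dcc*, *Neo1*, *Ntn1*, *Unc5d*, *Robo1*, *Robo2*, *Slit1*, *Nrp1*, *Plxna4*, *Sema3a*, *Epha4*, *Efna5* and *Efnb2*. Others with library values were chosen after their values were seen. No sequence is printed, since the RIP values do not bear on promoters and transcript and protein sequences were not used here.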

Additional observations from a re-analysis of the deposited data

How the results depend on the processing

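The counts of called members depended on the scaling, and the cause was not tested. In the order higher than IgG RIP, higher than input and higher than both, the counts were 13, 16 and 11 as reported, 5, 3 and 2 with total counts as the only scaling, 5, 7 and 3 with upper-quartile factors, 6, 3 and 2 with TMM over coding and noncoding genes, and 1, 2 and 0 with edgeR's test against the 2-fold threshold itself, which asks more of each gene. With that test 0 members were lower than IgG RIP, input or both, and 0 differed between the controls. Without a filter, with DESeq2 size factors and with DESeq2's Wald test, 9 members were higher than input and 6 higher than both, and fits of 2 conditions gave 7 and 5. Lower than IgG RIP were 2 as reported, 5 with total counts and 1 with curated transcripts, which also left 1 lower than both. Higher in IgG RIP than in input was 1 as reported, 2 with upper-quartile factors and with DESeq2's Wald test, and 0 with TMM over all genes and with curated transcripts. Lower there were 2 as reported and 4 with DESeq2 size factors, DESeq2's Wald test, TMM over all genes and curated transcripts. Leaving out 1 library gave 9 to 16 higher than input, 6 to 12 higher than both, 2 to 4 lower than input, 0 to 2 lower than both, and 0 to 4 higher in IgG RIP than in input.

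The members' median log2 fold change against IgG RIP, 0.57 as reported, was 0.50 with DESeq2 size factors, 0.205 with total counts, 0.304 with upper-quartile factors, 0.353 with TMM over all genes, 0.478 without a filter, 0.495 with DESeq2's Wald test, 0.477 with curated transcripts, and 0.464 to 0.579 without 1 library. Against input, 0.33 as reported, it was 0.188 with DESeq2 size factors and its Wald test, -0.13 with total counts, 0.0893 with upper-quartile factors, -0.0585 with TMM over all genes, 0.209 without a filter, 0.0944 in fits of 2 conditions, 0.286 with curated transcripts, and 0.213 to 0.358 without 1 library. For IgG RIP against input it was -0.167 with TMM over all genes. The median of all tested genes against IgG RIP moved too, from -0.06 to -0.42 with total counts.

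With the replicate block, 12 members were higher than IgG RIP, 15 higher than input and 10 higher than both, and no call changed apart from that of *Nrp2*.

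Some log2 fold changes, none of them called in that comparison, changed sign. With total counts these were, against IgG RIP, *Dcc* -0.17, *Robo2* -0.29 and *Sema3a* -0.36, and, against input, *Dcc* -0.17, *Efnb1* -0.08, *Efnb2* -0.21, *Epha1* -0.20, *Nrp1* -0.19, *Plxnb3* -0.19, *Robo1* -0.21, *Sema3c* -0.30, *Sema4d* -0.13 and *Slit3* -0.22. With TMM over all genes they were *Dcc* -0.02, *Robo2* -0.14 and *Sema3a* -0.21 against IgG RIP, and *Dcc* -0.10, *Efnb1* -0.01, *Efnb2* -0.14, *Epha1* -0.13, *Nrp1* -0.12, *Plxnb3* -0.11, *Robo1* -0.14, *Sema3c* -0.23, *Sema4d* -0.06 and *Slit3* -0.15 against input. With upper-quartile factors they were *Dcc* -0.07, *Robo2* -0.18 and *Sema3a* -0.26 against IgG RIP and *Sema3c* -0.08 against input. With curated transcripts they were *Dcc* -0.02, *Epha4* -0.02 (0.68 as reported), *Sema3a* -0.13 and *Sema3b* 0.14 (-0.93 as reported) against IgG RIP. *Sema3a*, at 0.00, was also -0.06 with DESeq2's Wald test, -0.07 with its size factors, -0.03 with a filter of 2 CPM, -0.05 in fits of 2 conditions, where *Sema3c* was -0.07 against input, and -0.09 without a filter, where *Robo2* was -0.01. Without 1 library, *Sema3a* was -0.10 to 0.07, *Robo2* -0.02 to 0.14 and *Slit3* -0.23 to 0.12 against IgG RIP, and *Epha1* -0.04 to 0.51 against input. *Epha1* was below 1 CPM in all 3 CELF2 RIPs and all 3 inputs, with 5 to 10 counts in each CELF2 RIP.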

Other observations

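Within a gene, the estimated counts are split among its transcripts. The 4 members below, with at least 500 counts in every library, were picked after their values were seen. In them the split in CELF2 RIP lay apart from all 6 controls. How many members, or how many of all genes, had such a split is not given here, so the 4 are examples. The split is an estimate by the quantifier, not a count of reads unique to a transcript. In *Epha4*, the predicted transcript XM_006496408.1 held 10.3% to 28.4% of the gene's counts in CELF2 RIP and at most 1.21% in a control. In *Plxna3*, XM_006527902.3 held 8.82% to 17.6% in CELF2 RIP and at most 1.19% in a control. In *Nrp1*, NM_008737.2 held 78.3% to 92.8% in CELF2 RIP, 54.0% to 61.7% in IgG RIP and 63.0% to 72.3% in input. In *Sema7a*, NM_011352.2 held 71.7% to 73.7% in CELF2 RIP, 56.6% to 64.8% in IgG RIP and 55.3% to 58.8% in input. With curated transcripts alone, the log2 fold change of *Epha4* over IgG RIP was -0.02 and that of *Plxna3* was 0.83.

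Microglial markers summed to 91.2 to 125 CPM in CELF2 RIP, 50.3 to 67.6 in IgG RIP and 93.7 to 119 in input, and 5 of the 6 genes passed the filter. The sum in CELF2 RIP was mostly *Cx3cr1*, at 77.7 to 108 CPM. Of the 5 tested genes, 3 were called lower than input, beside 15.5% of all tested genes. These were *Aif1* (-3.06), *C1qa* (-1.52) and *Tmem119* (-2.30), and *Tmem119* was also lower than IgG RIP. The 1 called higher than input, *Csf1r*, was at 0.0 CPM in every input and at most 3.39 CPM in CELF2 RIP. Of 5 genes listed as liver markers, 2 passed the filter, and their sum of 29.2 to 64.0 CPM in CELF2 RIP, 43.5 to 146 in IgG RIP and 161 to 450 in input was mostly *Ttr*, which the choroid plexus also expresses.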
